A study of Bos taurus with 24 samples.

Results

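Muscle of crossbred beef cows that gained most when feed was offered freely was set against muscle of cows that gained least, on the 12 arrays titled Muscle 2 out of 24 in the series. The 12 were taken by their titles, 6 labelled High Gain and 6 labelled Low Gain. The tissue was gluteus medius, a muscle of the rump, taken with a biopsy needle. All 12 cows came from a trial of 121 cows that had first received a restricted diet for 112 days, set at 120 kcal (metabolizable energy) for each kg of metabolic weight, and then free access to feed for 112 days. The 6 highest and the 6 lowest gaining cows were picked on gain in the free feeding period, and both classes had been through both periods. The labels give no age, and each array stands for 1 cow. The other 12 arrays, titled Muscle 1, hold an earlier biopsy of the same cows. Per the protocol, cows were biopsied on day 105 of restriction and again on day 49 of free feeding, and the numbers 1 and 2 are read here in that order, since the titles do not name the period. The cows of both classes are numbered 1 to 6 in the order of deposit, which pairs no cow of one class with a cow of the other.

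Muscle tissue holds fibres, connective tissue, vessels and a variable number of adipocytes that lie between the fibres. Adipocytes store triglyceride in a droplet coated by perilipins, and in cattle they are a main site of fatty acid synthesis, which starts largely from acetate. Adiponectin, encoded by ADIPOQ, is a hormone made almost only by adipocytes, so its transcript serves here as the measure of adipocyte content of a biopsy. In a bulk sample, fewer cells of a type and less RNA per cell cannot be told apart. All values below are the deposited log values, read as log2, so that a difference of 1 is a factor of 2 in the measured signal. Each gene is represented by its brightest array feature, and 14217 of 18444 named genes passed the filter on dim features.

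Muscle markers were high on all 12 arrays. Of the 25 muscle fibre markers all were detected above the filter, and 17 were at the upper limit of the scale on at least 1 array, among them the actin gene ACTA1, titin (TTN) and myoglobin (MB) on all 12. Such genes have only a lower bound there, and a drop in them can stay hidden. Array medians lay between 7.79 and 7.85. The median correlation of an array with the other 11 was 0.905 for high gain cow 4, and 0.963 to 0.982 for the other 11 arrays. High gain cow 4 thus stood apart from the rest.

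ADIPOQ itself was lower on average in the high gain cows, by an amount within the spread between cows. Among high gain cows 1 to 6 it read 8.89, 11.33, 10.28, 18.17, 8.37 and 10.77. Among low gain cows 1 to 6 it read 11.78, 14.81, 13.60, 10.30, 9.50 and 15.91. The classes overlapped: high gain cow 4 had the highest value of the 12, while the other 5 high gain cows lay below the low gain median of 12.69. The means were 11.30 ± 3.55 in high gain and 12.65 ± 2.55 in low gain cows (SD, n = 6 each), a difference of -1.35 (exact two-sided permutation test over 924 splits, p = 0.461, where the smallest p the design allows is 0.00216). Without high gain cow 4 the difference was -2.72 and the exact permutation p was 0.0649. That cow was left out after its value was seen to be the highest, which by itself lowers the high gain mean. This p is therefore no test of the classes.

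The other adipocyte markers moved with ADIPOQ from cow to cow. Averaged over the 18 markers of the list, the log2 level ran from 9.75 to 14.66 over the high gain cows and from 10.14 to 12.76 over the low gain cows. FABP4, the fatty acid binding protein of adipocytes, read 9.08, 11.87, 9.60, 19.30, 7.09 and 11.21 in high gain cows, against 12.16, 16.80, 13.51, 11.04, 9.13 and 16.72 in low gain cows. The hormone leptin, encoded by LEP, lay between 6.25 and 6.65 in 5 high gain cows and at 12.32 in high gain cow 4, against a range of 6.20 to 9.54 in low gain cows. On the plot of adipocyte genes high gain cow 4 stands above the 11 other cows in each of them, and low gain cows 2 and 6 come next.

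**Figure D1:**
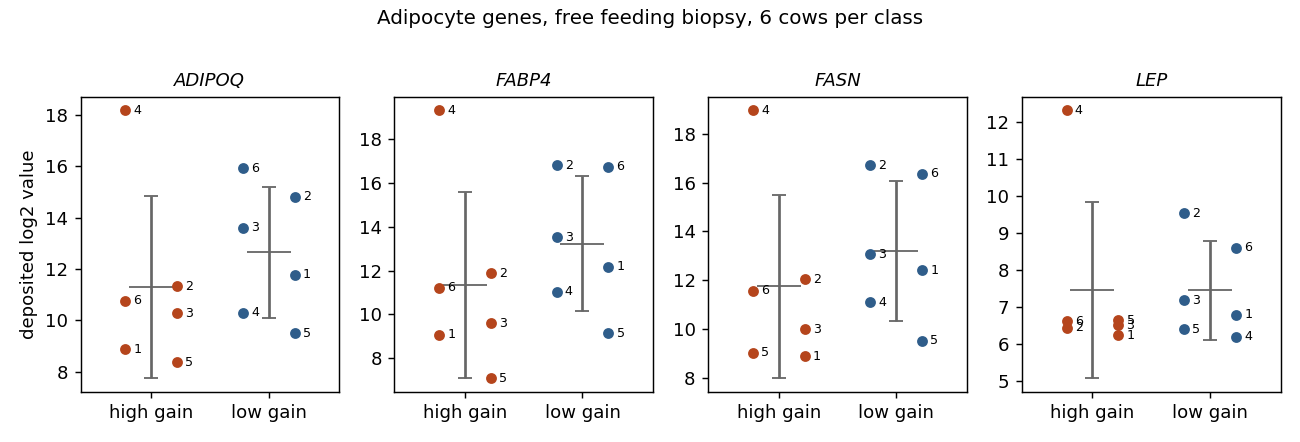
Deposited log2 values (vertical axis) of ADIPOQ, FABP4, FASN and LEP at the free feeding biopsy, in 6 high gain cows (left of each panel) and 6 low gain cows (right). Points are cows with their number, bars are the mean and SD; high gain cow 4 is highest in all 4 panels, with ADIPOQ at 18.17.

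No gene differed between the gain classes past the threshold. The comparison asked which transcripts of muscle separate cows of high gain from cows of low gain while they eat freely. At an adjusted p under 0.05 in limma with Benjamini-Hochberg adjustment, 0 of 14217 genes were called, which is 0%. At an unadjusted p under 0.05 there were 342 genes, 2.41% of those tested. If no gene differed, a share of 0.05 would fall under this cut-off on average, so the count is below that. The genes named below are thus those with the smallest p, not established differences. Of these, 174 were higher in high gain cows (1.22%) and 168 were lower (1.18%). The median 95% confidence interval of a single gene's difference, with no adjustment for the number of genes, reached 0.318 to either side. After the adjustment differences well above that size can be missed with 6 cows a class.

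Among the genes higher in high gain cows the smallest p belonged to TPPP2, a member of the tubulin polymerization-promoting family. It read 10.68, 10.26, 10.45, 10.33, 10.22 and 10.45 in high gain cows, against 9.50, 9.43, 9.72, 9.81, 9.98 and 10.14 in low gain cows. Every high gain cow was above every low gain cow, and the difference was 0.64 ± 0.14 (SE, n = 6 each; limma, unadjusted p = 0.000642, adjusted p = 1). At the earlier biopsy of the same cows the difference was 0.87 ± 0.28 (unadjusted p = 0.0077), and 0.63 ± 0.20 without low gain cow 4, which had the highest ADIPOQ of that biopsy. TPPP2 was thus higher in high gain cows at both biopsies, without passing the adjustment at either. Both biopsies come from the same cows, so the earlier value is not independent of the later one.

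RHBDD2, which encodes a rhomboid-like membrane protein, followed with 8.92, 9.02, 8.88, 8.96, 8.81 and 8.88 in high gain cows, against 8.46, 8.58, 8.47, 8.59, 8.80 and 8.37 in low gain cows. These values did not overlap either, with a difference of 0.37 ± 0.09. At the earlier biopsy RHBDD2 had a difference of -0.18 ± 0.14, so the direction there was the opposite. Further genes on this side were the adenylyl cyclase gene ADCY4 (0.38), PML, which builds nuclear bodies (0.30), the centriole gene POC1A (0.25), the zinc transporter gene SLC39A5 (0.36), TBKBP1, whose protein binds the kinase TBK1 (0.25), and SLC25A32, a mitochondrial folate carrier (0.48). All of them had an adjusted p of 1.

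On the other side, FAM107B had the smallest p of all genes. It read 8.21, 7.81, 7.92, 7.79, 7.84 and 7.99 in high gain cows, against 8.38, 8.35, 8.38, 8.25, 8.56 and 8.29 in low gain cows. The classes did not overlap and the difference was -0.44 ± 0.09 (limma, unadjusted p = 0.000316, adjusted p = 1). At the earlier biopsy FAM107B had the opposite direction, with 0.22 ± 0.30, and 0.46 ± 0.23 without low gain cow 4. RAP1B, a small GTPase of cell adhesion, read 7.28, 7.96, 7.58, 7.82, 7.06 and 7.92 in high gain cows, against 8.16, 7.97, 8.01, 8.34, 8.25 and 8.36 in low gain cows, a difference of -0.58 ± 0.15. The classes did not overlap, but high gain cow 2 and low gain cow 2 were nearly level. USP18, which removes the interferon-induced modifier ISG15 from proteins, had a difference of -0.52 ± 0.13. NFU1, a scaffold for iron-sulphur clusters in mitochondria, had one of -0.62 ± 0.18, and the transcription factor gene CSRNP1 one of -0.48 ± 0.13.

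**Figure D2:**
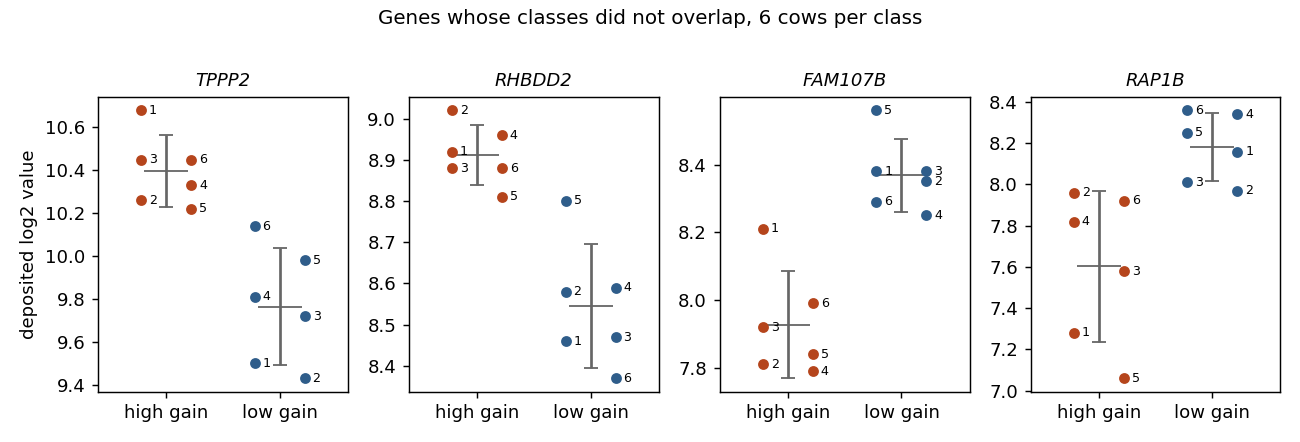
Deposited log2 values (vertical axis) of TPPP2, RHBDD2, FAM107B and RAP1B in 6 high gain cows (left) and 6 low gain cows (right), with cow numbers, mean and SD. In each panel the classes do not overlap; the differences of the means are 0.64, 0.37, -0.44 and -0.58.

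In all, 11 of 14217 genes (0.0774%) had classes that did not overlap. For values without ties, a share of 0.00216 of all 924 splits of the cows leaves no overlap. The share of genes seen was smaller, so such genes were no more frequent than random splits would give. Above in high gain cows were TPPP2, RHBDD2, PML, POC1A, TBKBP1 and the microRNA gene MIR2383. Below were FAM107B, RAP1B, B3GNTL1, PIAS4 and SLC27A5. MIR2383, B3GNTL1, PIAS4 and SLC27A5 were picked out after their values were seen.

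Fat genes and immediate early genes were among those with the widest differences between class means. Apart from ADIPOQ, 28 genes differed by more than 1, of which 24 were lower in high gain cows, 8 had an unadjusted p under 0.05 and 14 had a called slope on ADIPOQ within classes. Over all genes these shares were 48.6%, 2.41% and 17.1%. The 28 were picked for wide differences, and their median residual SD was 1.61, against 0.256 over all genes. Nothing is read from these counts. The immediate early genes NR4A2, FOS, ATF3 and FOSB, described further on, differed by -2.15, -1.89, -1.33 and -1.20, and METTL21C, a lysine methyltransferase of muscle, by -1.78 ± 1.33. MGST1, a microsomal glutathione transferase abundant in fat, differed by -2.04 ± 1.57. FABP4 differed by -1.87 ± 1.87, the lipid droplet gene CIDEC by -1.63 ± 1.75, and THRSP, a regulator of fat synthesis, by -1.48 ± 1.84. Fatty acid synthase (FASN) differed by -1.44 ± 1.68, the elongase ELOVL6 by -1.14 ± 1.87, DGAT2, which makes triglyceride, by -1.13 ± 1.36, and the desaturase gene SCD by -1.06 ± 0.76, with 3 cows at the scale's upper limit. The standard errors of these fat genes were large beside the differences, and none of the 8 from MGST1 to SCD passed an unadjusted p under 0.05.

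How far each gene followed ADIPOQ was measured by its slope on ADIPOQ within the gain classes, in log2 units per log2 unit of ADIPOQ, which does not use the difference of class means. Over 14216 genes, 2427 slopes were called at an adjusted p under 0.05 (17.1%), 1351 positive (9.5%) and 1076 negative (7.57%). Without high gain cow 4 there were 406 (2.86%), 261 positive (1.84%) and 145 negative (1.02%). Of the 2427 genes, 2406 kept their sign without that cow and 377 were also called without it. Over all 14216 genes 10878 kept their sign and 405 were called with it. The remaining cows are in both fits, so a called slope was likely to keep its sign. In the median gene 15.75% of the variance within classes followed ADIPOQ, and 10.61% in the median gene without a called slope. A fitted slope takes up some variance in any gene. Among the called genes the median was 67.2%, but these were picked on that same slope. The mean of the muscle fibre markers was lowest in high gain cow 4, the cow with most ADIPOQ, at 18.76. It was 18.87 in low gain cow 4, with ADIPOQ at 10.30, and 19.41 and 19.26 in low gain cows 2 and 6. CKM, the creatine kinase of muscle, read 19.22 in high gain cow 4 and was at the upper limit of 19.93 in the other 11 cows. ACTA1 and myoglobin were at that limit in high gain cow 4 as well. The part of a smaller share of muscle RNA in the slopes was not tested.

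The steepest positive slopes on ADIPOQ were those of fat genes. In the list for fatty acid and triglyceride synthesis, 17 of 27 genes had a positive slope past the threshold and 2 a negative one, and without high gain cow 4 the counts were 12 and 0. ELOVL6 had a slope of 1.19 ± 0.06, THRSP of 1.14 ± 0.09, FASN of 1.06 ± 0.06, the acetyl-CoA carboxylase gene ACACA of 0.97 ± 0.05, and ACLY, the ATP citrate lyase, of 0.93 ± 0.06 (SE, n = 12). FASN had a lowest value of 8.88, a median of 10.78 and a highest of 18.96 in high gain cows, against 9.52, 12.73 and 16.70 in low gain cows. Its highest values were those of high gain cow 4 and low gain cows 2 and 6, and 96.3% of its variance within classes followed ADIPOQ. Among adipocyte markers 13 of 17 had a positive slope and 0 a negative one, and without high gain cow 4 the count was 10. FABP4 had a slope of 1.18 ± 0.06, CIDEC of 1.10 ± 0.07, the droplet coat gene PLIN1 of 0.86 ± 0.06, and PPARG, the transcription factor that directs adipocyte formation, of 0.58 ± 0.05. These members include the markers for which ADIPOQ was picked, so their slopes describe the measure rather than test it.

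Other genes with steep positive slopes were MGST1 (0.99 ± 0.06), the cytochrome gene CYP2B6 (1.00 ± 0.09), clusterin (CLU, 0.91 ± 0.06), the mitochondrial enzyme gene PCK2 (0.95 ± 0.09) and brain-type creatine kinase (CKB, 0.86 ± 0.09). All of these slopes were also called without high gain cow 4. CKB lay between 7.42 and 8.41 in 5 high gain cows, at 15.86 in high gain cow 4, and between 7.54 and 12.76 in low gain cows.

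Connective tissue followed ADIPOQ as well. Of 38 extracellular matrix genes, 30 had a positive slope and 2 a negative one, and without high gain cow 4 the counts were 11 and 1. The collagen genes COL1A1 and COL3A1 had slopes of 0.46 ± 0.05 and 0.52 ± 0.06, and SPARC, a collagen-binding matrix protein, of 0.44 ± 0.04. Fibroblast markers gave 12 of 16 and endothelial markers 8 of 15 positive slopes, and without high gain cow 4 the counts were 5 and 1. Over all genes 9.5% had a positive slope past the threshold, and 1.84% without that cow. Macrophage and leukocyte markers gave 2 of 18, near the share over all genes, and 0 without that cow. Sterol synthesis gave 10 of 14, and 3 without that cow.

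**Figure D3:**
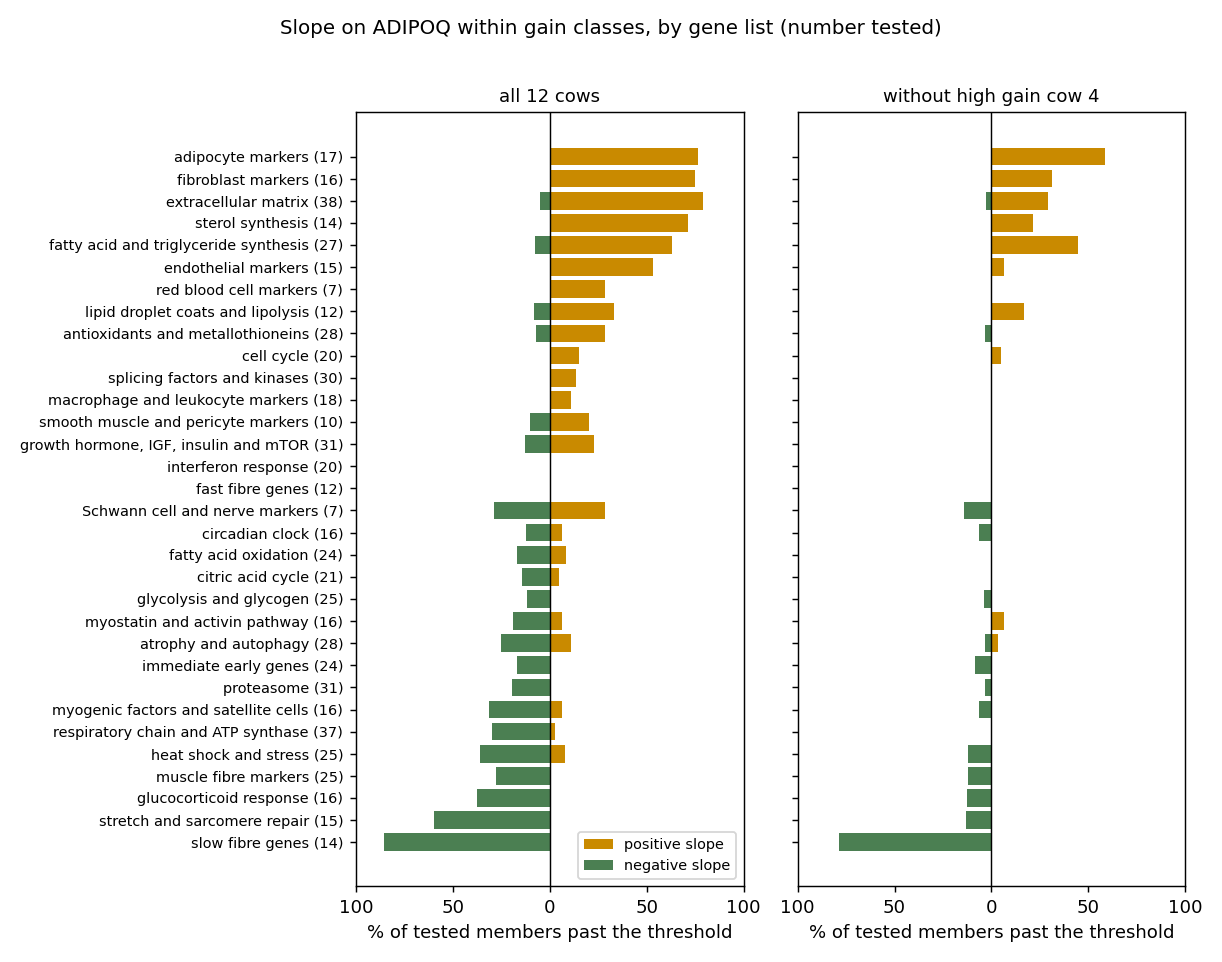
Share of the tested members of each of 32 gene lists (rows, number tested in brackets) with a slope on ADIPOQ past an adjusted p of 0.05, positive to the right and negative to the left, in percent; left panel all 12 cows, right panel without high gain cow 4. Slow fibre genes keep 11 of 14 negative calls without that cow, and extracellular matrix has 11 positive calls of 38.

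Genes of slow, oxidative muscle fibres ran the other way, and they did so with or without high gain cow 4. Of 14 slow fibre genes 12 had a negative slope on ADIPOQ and 0 a positive one, and without that cow 11 were negative. The remaining members, myoglobin and the slow light chain gene MYL2, were at the upper limit on every array. In all, 5 of the 14 were at the limit on at least 1 array, so some called slopes rest on few cows. The slow myosin gene MYH7 was below the limit only in high gain cow 4 (19.47) and low gain cow 6 (19.75). The slow troponin gene TNNI1 read 19.31, 19.29, 18.26, 15.83, 19.37 and 18.03 in high gain cows, against 19.44, 17.28, 18.08, 19.58, 19.54 and 16.32 in low gain cows. The lowest values were those of high gain cow 4 and low gain cows 6 and 2, the 3 cows with most ADIPOQ. Its slope was -0.41 ± 0.05 (SE, n = 12), and 85.6% of its variance within classes followed ADIPOQ.

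The light chain gene MYL6B, used in slow fibres, had the steepest negative slope, -1.14 ± 0.20, and ran from 10.34 to 18.62 over high gain cows and from 9.64 to 19.81 over low gain cows. The slow troponin gene TNNT1 had a slope of -0.37 ± 0.05, the Z-disc gene MYOZ2 of -0.53 ± 0.08, the slow tropomyosin gene TPM3 of -0.32 ± 0.05, and CASQ2, the slow and cardiac calsequestrin, of -0.60 ± 0.10. MIR208B, which in mouse and human lies in an intron of the slow myosin gene MYH7, had a slope of -0.54 ± 0.07. Of 12 fast fibre genes 0 had a called slope, though 6 of them were at the upper limit on at least 1 array, where a slope need not show. The difference between slow and fast fibre genes was not tested. In the respiratory chain 11 of 37 genes had a negative slope and 1 a positive one, and without high gain cow 4 both counts were 0. For gain, 33 of these 37 genes had a lower mean in high gain cows, where 48.6% of all genes had, with a median difference of -0.21. Without that cow 19 of 37 were lower, where 6673 of 14217 genes were, with a median of -0.01. None passed the adjustment. COX7A1, a muscle subunit of cytochrome oxidase, had a slope of -0.26 ± 0.04. It read 12.15 in high gain cow 4 and 14.54 or more in the other high gain cows, and without that cow the adjusted p of its slope in limma was 0.172.

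**Figure D4:**
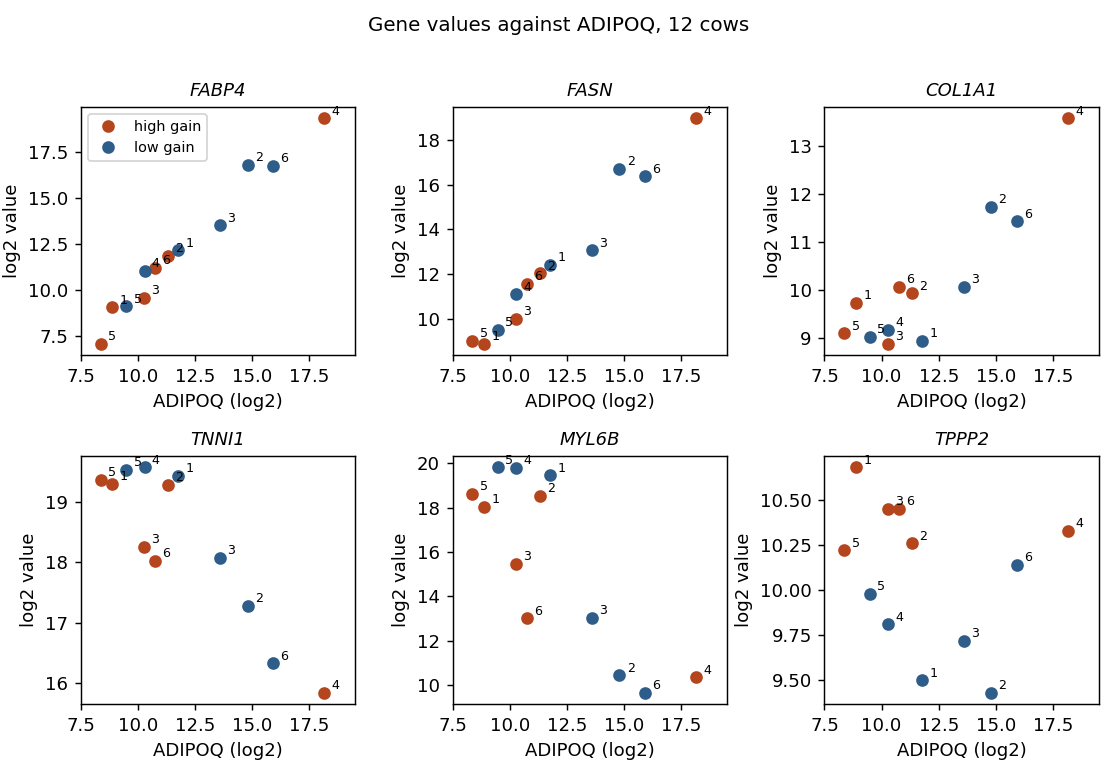
Deposited log2 values of 6 genes (vertical axes) against the log2 value of ADIPOQ (horizontal axes) in the 12 cows, with cow numbers; high gain cows are red and low gain cows blue. FABP4, FASN and COL1A1 run up with ADIPOQ, TNNI1 and MYL6B run down, and TPPP2 separates the classes at all values of ADIPOQ.

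The slopes were also seen in part at the earlier biopsy of the same cows, where ADIPOQ was measured anew. There 2277 slopes were called (16%), and of the 2427 genes above, 2143 had the same sign and 960 were called with it. Over all 14216 genes 9419 had the same sign at both biopsies and 1987 were called with it at the earlier one. Without low gain cow 4 on that biopsy, which had ADIPOQ at 17.98, 71 slopes were called (0.499%). Of the 1351 positive slopes 695 were called there with the same sign, and of the 1076 negative ones 265. FABP4 had a slope of 1.12 at the earlier biopsy, CIDEC of 1.03 and FASN of 0.61. The slow fibre genes named above did not pass there: TNNI1 had a slope of -0.54 (limma, adjusted p = 0.079), MYL6B of -0.32 (adjusted p = 0.457) and CASQ2 of -0.10 (adjusted p = 0.718). A test of whether slopes differed between the gain classes called 0 of 14216 genes in limma, with 1517 at an unadjusted p under 0.05.

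The gain difference was then computed at equal ADIPOQ, with ADIPOQ as a covariate. Again 0 of 14216 genes were called (0%), with 1043 at an unadjusted p under 0.05 (7.34%). Most differences did not shrink with the covariate. Over all genes 5405 of 14216 were smaller in size with it, and the median size was 0.1085 against 0.0897 without. Among the 2427 genes with a called slope 473 were smaller and 683 changed sign. Their median size was 0.2414 with the covariate and 0.1135 without. The differences of FABP4, CIDEC, FASN and THRSP were closer to 0. FABP4 had a difference of -0.28 ± 0.35 at equal ADIPOQ, against -1.87 without the covariate. CIDEC had -0.14 ± 0.38, FASN -0.01 ± 0.34, THRSP 0.06 ± 0.50, ELOVL6 0.46 ± 0.35 and MGST1 -0.70 ± 0.34. PLIN1 had 0.63 ± 0.32 at equal ADIPOQ against -0.53 ± 1.36 without the covariate, but 0.08 at equal ADIPOQ when high gain cow 4 was left out. Which adipocyte measure is used matters here: with PLIN1 in place of ADIPOQ, FASN had a difference of -0.81 and THRSP of -0.81. The intervals, for FASN -0.75 to 0.73, leave room for a difference of either sign.

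Over the lists, the median difference of the 18 adipocyte markers was -0.19, and 0.36 over the 17 other than ADIPOQ at equal ADIPOQ, where over all genes tested the medians were 0.0048 and -0.0004. For fat synthesis the medians were -0.22 and 0.11, for extracellular matrix 0.10 and 0.36, and for slow fibre genes -0.04 and -0.55. No list had a called gene in either fit. TNNI1 had a difference of -0.02 ± 0.69 without the covariate and of -0.58 ± 0.27 with it. Without high gain cow 4 the class differences of fat genes were wider, and 735 genes had an unadjusted p under 0.05 (5.17%), 383 of them lower in high gain cows (2.69%), and 0 of 14217 passed the adjustment (0%). All 18 adipocyte markers were then lower in high gain cows, as were 6673 of all 14217 genes. Of the 18 markers, 9 had an unadjusted p under 0.05, and the median difference of the 18 was -0.83. FABP4 differed by -3.46 ± 1.34, FASN by -2.89 ± 1.19 and PLIN1 by -1.85 ± 0.79. High gain cow 4 was left out after its high fat gene values were seen, so these lower values follow in part from that choice. At equal ADIPOQ the median of the 17 markers without that cow was -0.03. For slow fibre genes the medians without that cow were 0.27, and -0.72 at equal ADIPOQ. For fat synthesis they were -0.52 and 0.02. For extracellular matrix the direction of the plain difference turned without that cow, to a median of -0.25 with 34 of 38 genes lower in high gain cows, and was 0.13 at equal ADIPOQ.

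Of the 342 genes at an unadjusted p under 0.05 for gain, 11 had a called slope on ADIPOQ, against 17.1% of all genes. Genes that follow ADIPOQ vary more within classes, with a median residual SD of 0.498 among called slopes and of 0.234 among the rest, so a small p without the covariate leaves most of them out, and nothing is read from that count. Of the 1043 genes at an unadjusted p under 0.05 at equal ADIPOQ, 560 had a called slope. With the covariate the median residual SD was 0.295 among called slopes and 0.224 among the rest. The median size of the difference at equal ADIPOQ was 0.2414 and 0.0942. Nothing is read from this count either. TPPP2 had a difference of 0.62 at equal ADIPOQ against 0.64 without the covariate, RHBDD2 of 0.36 against 0.37, RAP1B of -0.54 against -0.58 and FAM107B of -0.47 against -0.44. In TPPP2, 1.29% of the variance within classes followed ADIPOQ.

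Immediate early genes, transcription factors and regulators that cells switch on within minutes of a stimulus, were lower on average in high gain cows at equal ADIPOQ as well. Of 24 such genes 21 had a lower mean in high gain cows, 5 at an unadjusted p under 0.05 and 0 past the adjustment. Over all genes tested 48.6% had a lower mean, and 1.18% were lower at an unadjusted p under 0.05. The median difference of the 24 genes was -0.52, against 0.0048 over all genes tested, and -0.70 at equal ADIPOQ. Without high gain cow 4 it was -0.46, and at the earlier biopsy 0.09. NR4A2, an orphan nuclear receptor, read 8.07, 7.97, 11.18, 7.53, 9.59 and 9.20 in high gain cows, against 12.97, 8.22, 9.32, 13.23, 11.86 and 10.82 in low gain cows. The classes overlapped, with low gain cows 2, 3 and 6 among the high gain values, and the difference was -2.15 ± 0.86 (limma, unadjusted p = 0.0271, adjusted p = 1) and -2.57 at equal ADIPOQ.

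FOSB, a partner of JUN in the AP-1 factor, read 7.59, 7.86, 8.28, 7.51, 9.0 and 7.55 in high gain cows, against 11.03, 7.80, 8.17, 9.36, 9.82 and 8.80 in low gain cows. The difference was -1.20 ± 0.47, and -1.40 at equal ADIPOQ. JUNB differed by -0.75 ± 0.29 and JUND by -0.55 ± 0.20, where low gain cow 1 read 10.46 in JUND and the next cow 9.57. MYC differed by -0.27 ± 0.12. FOS itself differed by -1.89 ± 0.99 (limma, unadjusted p = 0.0788) and ATF3 by -1.33 ± 0.65. Low gain cows 1, 4 and 5 were above all 6 high gain cows in FOS, and in FOSB likewise.

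**Figure D5:**
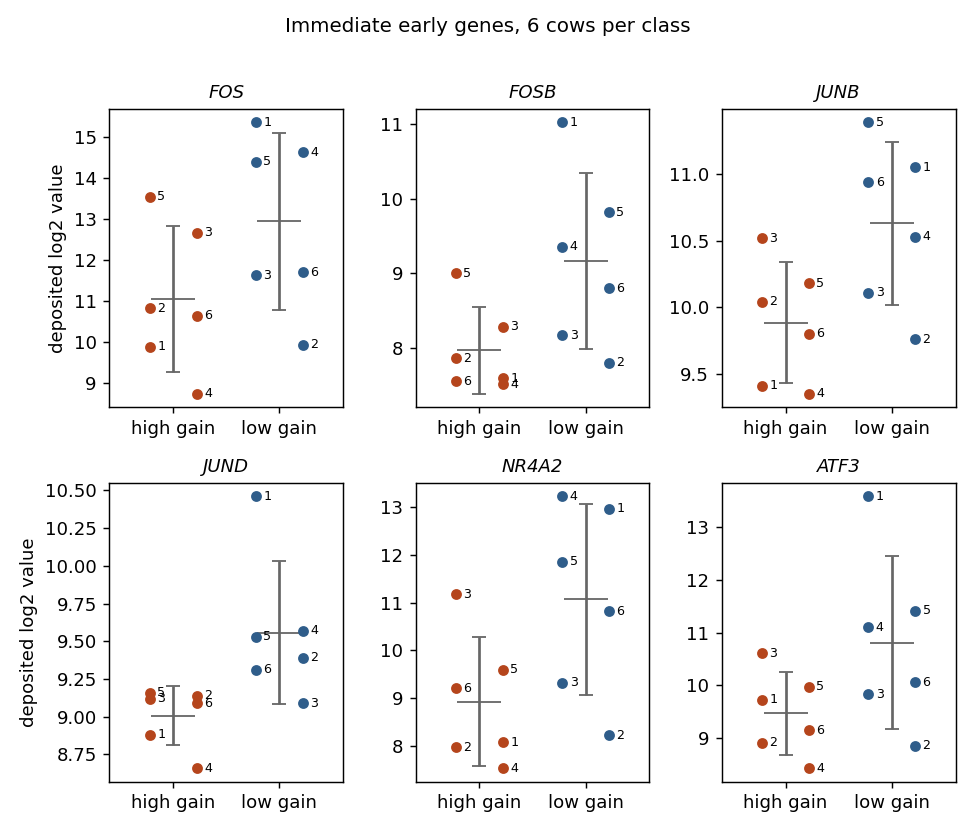
Deposited log2 values (vertical axis) of 6 immediate early genes in 6 high gain cows (left) and 6 low gain cows (right), with cow numbers, mean and SD. Low gain cows 1, 4 and 5 are high in FOS and FOSB; the classes overlap in every panel.

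Of 25 heat shock and stress genes 20 had a lower mean in high gain cows, where 48.6% of all genes had. At an unadjusted p under 0.05 2 of the 25 were lower, against 1.18% of all genes. These 2 were HSPH1, a large co-chaperone of HSP70 (-0.59 ± 0.24), and DNAJA1, an HSP40 protein (-0.47 ± 0.22). The median difference of the list was -0.13, and -0.28 at equal ADIPOQ. Without high gain cow 4 16 of 25 were lower, with a median of -0.08 and 1 gene at an unadjusted p under 0.05 in each direction, and at the earlier biopsy the median was 0.64. In the glucocorticoid response list 9 of 16 genes were lower, where 48.6% of all genes were, and the median was -0.02, and 0.02 without high gain cow 4. Its member with the smallest p was CEBPD, at -0.77 ± 0.30. The clock repressor NR1D1 differed by -0.80 ± 0.33. The matrix signal gene CCN2 differed by -0.62 ± 0.26 and CDKN1A, an inhibitor of the cell cycle, by -0.37 ± 0.14. HNRNPA2B1, an RNA-binding splicing factor, differed by -0.32 ± 0.14. On the other side were the proteasome genes PSMD1 (0.32 ± 0.14) and PSMA1 (0.31 ± 0.14), with 20 of 31 proteasome genes higher in high gain cows and a median of 0.05, where 7313 of 14217 genes were higher. Without high gain cow 4 25 of 31 were higher, with a median of 0.12. None of these genes passed the adjustment.

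At equal ADIPOQ the muscle genes MYOM2 and ALPK3 were among those with the smallest p. Other genes had small p as well, such as FAM107B (-0.47, limma, unadjusted p = 0.000185) and IRF3 (-0.42, unadjusted p = 0.000503). MYOM2, a protein of the sarcomere's M-band, had a difference of -0.90 at equal ADIPOQ and of -0.60 ± 0.39 without. The kinase gene ALPK3 had -1.03 and -0.70, and DUSP1, a phosphatase that is also an immediate early gene, -1.16 and -0.81. Higher at equal ADIPOQ were the annexin gene ANXA4 (0.83), SEC22B of vesicle traffic (0.67), the cytochrome gene CYP4V2 (0.63), the glutathione transferase gene GSTA4 (0.87) and ARMT1 (0.57). High gain cow 4 was apart from its class in several of these. In CYP4V2 it read 10.44 and no other high gain cow more than 8.22, and without it the difference at equal ADIPOQ was 0.33. Without it the values were 0.69 in ANXA4, 0.47 in SEC22B, 0.63 in GSTA4, -0.96 in MYOM2 and -0.76 in ALPK3. The smallest adjusted p of this fit was 0.605.

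Whether the gain classes differed otherwise at the earlier biopsy was tested within cows, as the difference at biopsy 2 minus that at biopsy 1. Here 0 of 14217 genes were called (0%), and 547 had an unadjusted p under 0.05 (3.85%). A shift common to a biopsy cancels in this test, and the arrays of each biopsy appeared to have been normalized separately. The smallest p belonged to the nucleoporin gene NUP88, with -0.77 ± 0.17, followed by NMRK1, a nicotinamide riboside kinase, with 0.81 ± 0.18 (limma, adjusted p = 0.9995 for both). NMRK1 had a gain difference of 0.34 ± 0.11 at the free feeding biopsy and of -0.47 ± 0.11 at the earlier one. SPEN, a transcriptional repressor, had a value of -1.14 ± 0.25, with a gain difference of 0.02 at the free feeding biopsy and of 1.16 at the earlier one. The kinase gene ROCK2 had -2.24 ± 0.59 and MYOG, the myogenic factor myogenin, -1.96 ± 0.52, with gain differences at the earlier biopsy of 1.84 and 2.02. Without low gain cow 4 the values were -2.26 in ROCK2 and -1.50 in MYOG.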

How the data were processed

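Affymetrix arrays of muscle RNA from 12 cows at 2 biopsies were used, 12 arrays in the main comparison. RNA was isolated with TriPure and 250 ng of it labelled with biotin, per the labels' protocols. The submitters' processing notes name Affymetrix Expression Console and Transcriptome Analysis Console. No version or normalization is stated there. The authors deposited 1 table of log2 values, the base being read from the range. The highest value was 19.9315 at biopsy 2 and 19.8071 at biopsy 1. Values within 0.05 of that limit were taken as saturated, which touched 35 genes.

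The annotation gave 1 gene for 18790 of 26773 features, several for 385 and none for 7598. Where a gene had several features, the brightest on average stood for it. Genes under the 25th percentile of features (6.77) were left out, and ADIPOQ where it was the covariate. Tests used limma 3.58.1 (R 4.3.3), where lmFit was followed by eBayes with its trend option. P-values were Benjamini-Hochberg adjusted over all genes tested, with a threshold of 0.05. The difference between biopsies had each cow as a block, since an animal number in the titles links its arrays. Fits were tested on simulated data. Named genes were taken from the 12 smallest p per direction for gain and from 5 per direction at equal ADIPOQ and between biopsies. Others came from the 12 largest positive and 8 largest negative slopes. From each list the called members, the 4 with the smallest p and any marker could be named. Not all of these are named: for gain, OR1K1, LGALS4 and OR5W33 were among those left out. The comparison, the 32 lists and the tests were chosen with earlier results of these data known. Different cows are the replicates, and their number limits the precision. Alternatives covered normalization, filter, features of a gene, array weights, the covariate and leaving out cows.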

Additional observations from a re-analysis of the deposited data

Results flagged for a closer look

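The value of 1 cow was set apart when its gap to the nearest cow of its class, as a share of the range of the 6 cows, passed the 95% critical value of Dixon for 6 values. In 196 sets of 6 values, 29 were set apart so, 14.8%, and 26 of them were high gain cow 4. Chance gives about 1 in 20 for independent values, but that rate is no yardstick here, since many of these genes were named for slopes on ADIPOQ or differences at equal ADIPOQ, which this cow's ADIPOQ shapes, and they move together.

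High gain cow 4 was the highest of its class in ADIPOQ, with a gap of 0.698 of the range, and in the fat genes FASN (0.686), ACACA (0.761), ACLY (0.787), DGAT2 (0.678), PLIN1 (0.837), LEP (0.934), LPL (0.63), PPARG (0.798), CD36 (0.873) and PCK2 (0.883). It was also highest in CYP2B6 (0.711), CLU (0.631), CKB (0.883), ANXA4 (0.811), SEC22B (0.739), CYP4V2 (0.854) and GSTA4 (0.669), and in the matrix genes COL1A1 (0.748), COL3A1 (0.705) and SPARC (0.711). It was lowest in the muscle genes MYOM2 (0.703), ALPK3 (0.799), MYOG (0.677), COX6A2 (0.783) and COX7A1 (0.773).

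In 3 sets another cow was set apart. Low gain cow 1 was highest in JUND (0.651), at 10.46, with the next low gain cow at 9.57. High gain cow 5 was highest in METTL21C (0.747), a lysine methyltransferase of muscle, at 16.12, with the next high gain cow at 11.02. Low gain cow 2 was lowest in ROCK2 (0.654), at 12.13, with the next at 12.91.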

How the results depend on the processing

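The gain difference, the gain difference at equal ADIPOQ and the difference between biopsies had 0 genes past the adjustment in limma under every alternative run, each cow left out included. The difference between biopsies also had 0 without the replicate block, that is without pairing the biopsies of a cow. Their counts at an unadjusted p under 0.05 were 342, 1043 and 547, and for gain the count was 516 without the filter, 197 with a stricter one, 615 with array weights, 607 without the 2 cows farthest from the median ADIPOQ and 292 to 735 with a cow left out. The ADIPOQ difference ran from -2.72 to -0.70 with a cow left out. The count of slopes moved from the 2427 reported to 1005 with array weights, to 101 without those 2 cows, and to 406 to 2414 with a cow left out, the lowest without high gain cow 4. Fits that leave out cows have fewer of them, while array weights use all 12, and the cause was not tested.

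At equal ADIPOQ the sign of some fat genes turned. With the rank of ADIPOQ, an alternative chosen after seeing the data, CIDEC was 0.62, FABP4 0.47 and FASN 0.64. With array weights CIDEC was 0.12, and without the 2 cows CIDEC was 0.44 and FASN 0.092. With PLIN1 as the covariate ELOVL6 was -0.45 and THRSP -0.81, and with the mean of the adipocyte markers -0.25 and -0.61. With a cow left out CIDEC ran from -0.36 to 0.32, FASN from -0.23 to 0.20 and THRSP from -0.21 to 0.34. The plain gain difference of TNNI1 was 0.21 with array weights, 0.070 without the 2 cows and -0.43 to 0.48 with a cow left out. The causes were not tested. Among named slopes 46 values kept their sign and lost the call. Signals at the upper limit of the scale limit what muscle genes can show, and no depth applies to arrays.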
